A study of Homo sapiens with 6 samples.

Results

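Described here are 9 genes of the epidermal growth factor (EGF) system, 6 ligands (TGFA, AREG, EREG, HBEGF, BTC and NRG1) and 3 receptors (EGFR, ERBB2 and ERBB3), in human A375 melanoma cells with and without a knockout of the kinase gene RIPK4. The genes were matched by name among the 20851 genes of the deposited count table, and all 9 are listed in it. They were picked by family, but with their differences between these same libraries already known. Those differences are therefore given as a description, with no p-value, and nothing is supported with them. The EGF-family ligands are made as membrane-anchored precursors that proteases cut free, and they act on the cell that makes them or on its neighbours. TGFA, AREG, EREG, HBEGF and BTC bind EGFR, whereas NRG1 binds ERBB3 and ERBB4. ERBB2 has no known ligand and ERBB3 has little kinase activity of its own, so both signal in pairs with other family members. In the melanocyte lineage, ERBB3 is the best-known receptor of the family.

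Poly(A)-enriched, strand-specific RNA-seq was carried out on 6 libraries of A375, a human melanoma cell line. The 3 A375RIPK4.KO libraries came from clone #1, made with the CRISPR/Cas9 system and a lentiviral guide RNA against RIPK4. The 3 A375neg libraries came from the control cells, made with a nontargeting guide RNA and labelled as a GFP control. Both groups were A375 cells grown in the same serum-containing medium. With a single clone, loss of RIPK4 and what sets this clone apart in other ways cannot be told apart. The series' design text calls the replicates biological, and the paper also calls them independent, without saying that cultures were separate. The p-values given for other genes therefore measure the spread between these samples only. The libraries held from 21882863 to 26694140 raw counts over all genes. A count of 0 allows up to 3 counts, which correspond to 0.112 to 0.137 CPM, the count scaled to the library's total. This limit covers counting error only.

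RIPK4 itself had 319, 368 and 404 raw counts in A375neg and 42, 51 and 61 in A375RIPK4.KO, which matches the labels. A375RIPK4.KO replicate 2 stood apart from the others of its group, with a chi-square per gene of 19.3 to 23.0 against them where other pairs within a group had 6.17 to 8.52. Its counts ran lower for longer genes, by a slope of -0.0391 log2 CPM per doubling of length (-0.0076 to 0.0204 in the others). Of 7 markers of the melanocyte lineage, 4 were listed and 1, S100B, was past the limits for a change given below, and lower in A375RIPK4.KO. SOX10 was abundant, with 8844, 9781 and 10056 raw counts in A375neg and 7451, 7448 and 7858 in A375RIPK4.KO, a log2 fold change of -0.20. MITF had 500, 440 and 535 in A375neg and 326, 288 and 376 in A375RIPK4.KO. Its log2 fold change was -0.44 (edgeR adjusted p = 0.0449), short of 1.5-fold. PMEL had at most 22 raw counts and a log2 fold change of -0.30, and MLANA, TYR and DCT were not listed. The summed level of this list was 384 to 416 CPM in A375neg and 332 to 349 CPM in A375RIPK4.KO. Of 6 keratinocyte markers, 3 were listed. Their sum was 71.5 to 75.2 CPM in A375neg and 53.3 to 66.2 CPM in A375RIPK4.KO, and KRT5 had 2 to 11 raw counts. Within that list KRT14 fell from 461, 607 and 504 to 121, 158 and 147 raw counts (edgeR adjusted p = 3.46e-05). KRT10, the most abundant of the list, had 1376, 1287 and 1420 raw counts in A375neg and 1174, 1394 and 1138 in A375RIPK4.KO. Its log2 fold change was -0.0055, not past the limits. Fibroblast markers summed to 4.92 to 6.11 CPM in A375neg and 4.17 to 5.57 CPM in A375RIPK4.KO, with COL1A2 and COL3A1 not listed. None of the fibroblast markers tested was past the limits, and DCN, at 4 to 28 raw counts, was not tested. PDGFRA, the most abundant, had a log2 fold change of 0.27. The rarer COL1A1 (1 to 27 raw counts) and LUM (7 to 39) had -1.34 and -1.38. Leukocyte markers summed to 1.58 to 2.01 CPM and 0 to 0.713 CPM, with LYZ past the same limits and lower, PTPRC at 0 to 3 raw counts, and CD3E not listed. The part of these differences in the results below was not tested.

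Normalized counts here are raw counts after TMM scaling, and 14443 genes passed the filter on low counts. A gene is described as past both limits when the quasi-likelihood test of edgeR, adjusted over all these genes (Benjamini-Hochberg), gave a p under 0.05 together with a change of 1.5-fold or more. Of the genes tested, 9.04% were past both limits, 4.39% higher and 4.65% lower in A375RIPK4.KO, and 36.5% had normalized counts without overlap between the groups. In bulk RNA, fewer cells that make a transcript and less of it per cell cannot be told apart.

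Among the 9 genes, 8 passed the filter on low counts and EREG did not. TGFA, AREG, BTC and ERBB3 were past both limits and lower in A375RIPK4.KO, NRG1 was past both limits and higher, and HBEGF, EGFR and ERBB2 were not past them. Because the genes were chosen with these differences known, the count of 5 beside the 9.04% of all genes is not read as a result. With each library left out in turn, and under every other alternative run with the 1.5-fold limit, the same 5 genes were past both limits. Without A375RIPK4.KO replicate 2, the log2 fold changes were -2.57 for TGFA, -2.22 for AREG, -1.19 for BTC, 0.94 for NRG1 and -1.37 for ERBB3, and -0.31 for HBEGF, 0.32 for EGFR and 0.12 for ERBB2.

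**Figure D1:**
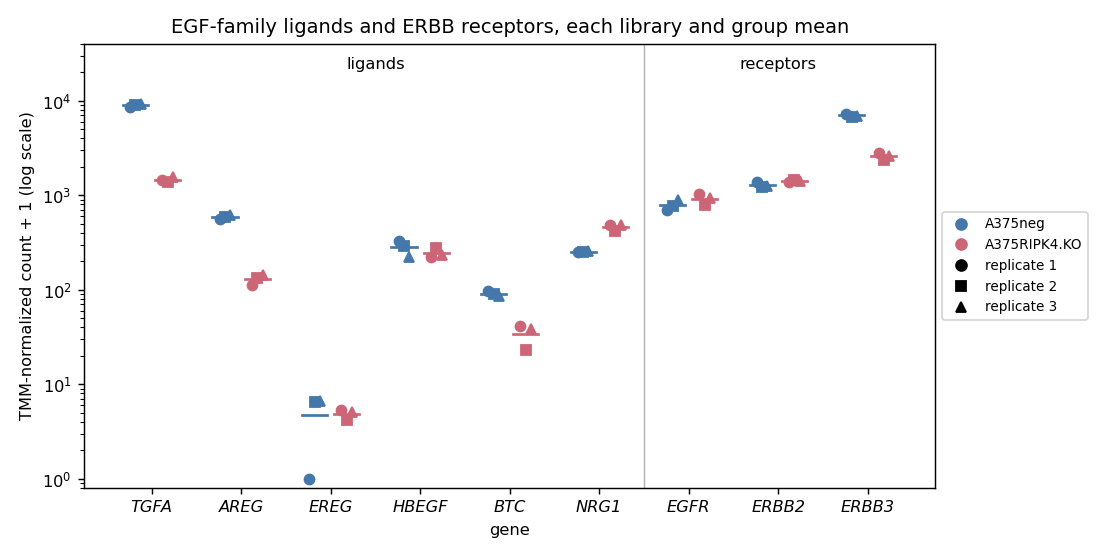
TMM-normalized count plus 1, on a log axis, of each gene in each of the 6 libraries (symbols, by replicate), with the group mean as a bar. TGFA, AREG, BTC and ERBB3 lie lower in all 3 A375RIPK4.KO libraries, NRG1 lies higher, and the groups overlap for EREG, HBEGF and EGFR.

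TGFA encodes transforming growth factor alpha, a ligand of EGFR (chromosome 2, 70447280 to 70554193, minus strand, GENCODE 29 on GRCh38). It had 8595, 9771 and 9744 raw counts in A375neg replicates 1 to 3 and 1319, 1323 and 1534 in A375RIPK4.KO replicates 1 to 3. All A375neg libraries were far above all A375RIPK4.KO libraries, and the spread within each group was small, with a coefficient of variation of 3.63% and 6.07%. The normalized count was 8943 ± 325 (SD, n = 3) in A375neg and 1459 ± 88.5 (SD, n = 3) in A375RIPK4.KO, 6.13-fold lower, a log2 fold change of -2.62 (standard error, SE, 0.07). It lay between -2.66 and -2.57 when any 1 library was omitted.

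AREG encodes amphiregulin, another EGFR ligand (chromosome 4, 74445134 to 74455009, plus strand). It had 564, 644 and 652 raw counts in A375neg and 101, 126 and 141 in A375RIPK4.KO. Again the groups were well apart. Its normalized count was 592 ± 27.1 (SD, n = 3) and 128 ± 16.5 (SD, n = 3), 4.60-fold lower in A375RIPK4.KO with a log2 fold change of -2.20 (SE 0.12). Without A375RIPK4.KO replicate 1 the log2 fold change was -2.11, the closest to 0 of the 6 fits that leave out a library.

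BTC encodes betacellulin, which binds EGFR and ERBB4 (chromosome 4, 74744759 to 74794686, minus strand). Its raw counts were 95, 97 and 89 in A375neg and 37, 21 and 37 in A375RIPK4.KO. The lowest of these belonged to A375RIPK4.KO replicate 2, and the groups did not overlap. Normalized counts were 89.6 ± 5.32 (SD, n = 3) and 33.3 ± 9.96 (SD, n = 3), 2.69-fold lower. The log2 fold change was -1.43 with a SE of 0.26, the widest among the genes of this set past both limits. Without A375RIPK4.KO replicate 2 it was -1.19.

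NRG1 encodes neuregulin 1, a ligand of ERBB3 and ERBB4, and spans 1128574 bases (chromosome 8, 31639386 to 32767959, plus strand). It was the 1 ligand of the set that was past both limits and higher in A375RIPK4.KO, with 251, 270 and 273 raw counts in A375neg and 440, 405 and 482 in A375RIPK4.KO. Every A375RIPK4.KO library was above every A375neg library. The normalized count rose from 253 ± 5.27 (SD, n = 3) to 464 ± 36.1 (SD, n = 3), 1.84-fold, a log2 fold change of 0.88 (SE 0.10, and 0.84 to 0.94 with 1 library left out). Removing the trend of counts with gene length gave 0.91.

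HBEGF encodes heparin-binding EGF-like growth factor, which binds EGFR and ERBB4 (chromosome 5, 140332843 to 140346631, minus strand). It had 330, 315 and 234 raw counts in A375neg and 203, 266 and 227 in A375RIPK4.KO. In raw counts A375neg replicate 3 lay among the A375RIPK4.KO libraries. After normalization it was the lowest library while the other A375neg libraries were the highest, so the groups overlapped. The log2 fold change was -0.21 (SE 0.17, 95% interval -0.59 to 0.18), and it ran from -0.35 to -0.07 with 1 library left out.

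EREG encodes epiregulin, a ligand of EGFR and ERBB4 (chromosome 4, 74365143 to 74388751, plus strand). It was hardly detected, with 0, 6 and 6 raw counts in A375neg and 4, 3 and 4 in A375RIPK4.KO, or 3.74 ± 3.24 (SD, n = 3) and 3.85 ± 0.645 (SD, n = 3) normalized counts. A difference between the groups was not detectable at this depth.

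Among the receptors, ERBB3 (chromosome 12, 56076799 to 56103505, plus strand) was the most abundant in raw counts and the 1 past both limits. It had 7235, 7401 and 7378 raw counts in A375neg and 2595, 2259 and 2549 in A375RIPK4.KO. The libraries of each group lay close together, and A375RIPK4.KO replicate 2 was the lowest. Its normalized count was 7015 ± 209 (SD, n = 3) in A375neg and 2593 ± 239 (SD, n = 3) in A375RIPK4.KO, 2.71-fold lower, a log2 fold change of -1.44 (SE 0.08). The value nearest 0 with a library omitted was -1.37, without A375RIPK4.KO replicate 2.

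EGFR, the receptor of TGFA and AREG (chromosome 7, 55019021 to 55211628, plus strand), had 691, 833 and 947 raw counts in A375neg and 942, 758 and 916 in A375RIPK4.KO. The groups overlapped, and both had a coefficient of variation near 13%, 13.3% in A375neg and 13.1% in A375RIPK4.KO. Its log2 fold change was 0.22 (SE 0.12, 95% interval -0.05 to 0.50). It was 0.32 without A375RIPK4.KO replicate 2 and 0.13 without A375RIPK4.KO replicate 1.

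ERBB2, the receptor without a ligand (chromosome 17, 39687914 to 39730426, plus strand), had 1381, 1341 and 1335 raw counts in A375neg and 1279, 1374 and 1390 in A375RIPK4.KO. These raw counts overlapped. After normalization they were 1294 ± 76.8 (SD, n = 3) and 1414 ± 18.5 (SD, n = 3) and no longer overlapped, with a log2 fold change of 0.13 (SE 0.07, 95% interval -0.02 to 0.28). On the opposite strand, PGAP3 shares 194 exonic bases with ERBB2 and MIEN1 shares 571. It is not stated whether the counting used the strand, so reads from these overlaps cannot be told apart. EGFR shares 186 exonic bases with EGFR-AS1 on the opposite strand, and ERBB3 shares 31 with AC034102.2 on its own strand, where even stranded counting could not separate the reads. Neither of these neighbours is listed in the table.

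**Figure D2:**
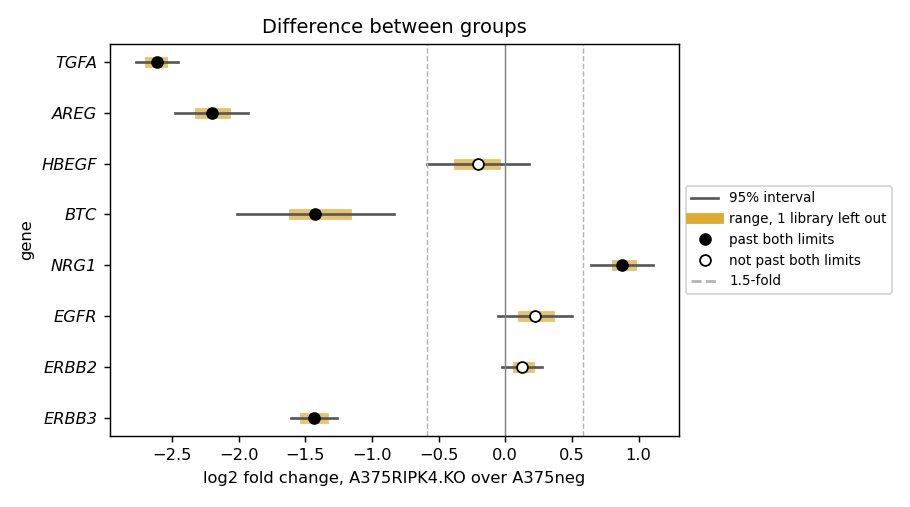
Log2 fold change of A375RIPK4.KO over A375neg for the 8 genes that passed the filter on low counts, with the 95% interval (thin line) and the range with 1 library left out (thick line). TGFA, at -2.62, lies furthest from 0, NRG1 is the 1 filled point on the right, and the intervals of HBEGF, EGFR and ERBB2 include 0.

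Levels were compared between genes per kilobase of exon, as CPM after TMM scaling divided by the length of the merged GENCODE exons. In A375neg the order ran from TGFA, at 73.4 ± 2.67 CPM per kilobase (SD, n = 3), through ERBB3 at 31.6 ± 0.942 and AREG at 14.6 ± 0.669, to ERBB2 at 5.11 ± 0.303. Below them came HBEGF at 3.79 ± 0.739, EGFR at 2.56 ± 0.340, BTC at 1.30 ± 0.0770, NRG1 at 0.910 ± 0.0190 and EREG at 0.0266 ± 0.0231 CPM per kilobase. No neighbours in that order overlapped in their range over the 3 libraries. The order therefore held in every A375neg library, with the ligand TGFA well above its receptor EGFR.

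In A375RIPK4.KO the levels lay closer together. TGFA, at 12.0 ± 0.727 CPM per kilobase (SD, n = 3), and ERBB3, at 11.7 ± 1.08, overlapped in their ranges. ERBB2 followed at 5.58 ± 0.0731, and then HBEGF at 3.28 ± 0.406, AREG at 3.17 ± 0.409 and EGFR at 2.98 ± 0.390. HBEGF overlapped with AREG and AREG with EGFR, so the order of these neighbours is not given by the data. NRG1, at 1.67 ± 0.130 CPM per kilobase, lay above BTC, at 0.482 ± 0.144, whereas BTC lay above NRG1 in A375neg. With the longest transcript as the length, NRG1 was above BTC in both groups, so the order of this pair in A375neg depends on the length used.

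Summed over the 6 ligands, the level was 94.1 ± 2.59 CPM per kilobase (SD, n = 3) in A375neg and 20.6 ± 0.985 in A375RIPK4.KO. TGFA made up 78.0% ± 0.704 (SD, n = 3) of that sum in A375neg and 58.1% ± 1.75 in A375RIPK4.KO. The share of AREG was 15.5% ± 0.297 and 15.4% ± 1.43, which overlapped between the groups. HBEGF, whose own level overlapped between the groups, held 4.04% ± 0.890 of the sum in A375neg and 16.0% ± 2.28 in A375RIPK4.KO, and NRG1 held 0.967% ± 0.0224 and 8.10% ± 0.581. Thus TGFA and AREG together carried most of the ligand transcript in both groups, from a total that was lower in A375RIPK4.KO. Among the receptors, ERBB3 made up 80.5% ± 0.504 of the summed level in A375neg and 57.7% ± 1.35 in A375RIPK4.KO. ERBB2 held 12.7% to 13.5% over the A375neg libraries and 27.7% ± 2.27 in A375RIPK4.KO, and EGFR held 6.51% ± 0.915 in A375neg and 14.7% ± 0.938 in A375RIPK4.KO. These shares are descriptions and depend on the lengths used: with the longest transcripts, TGFA held 75.6% of the ligand sum in A375neg and 53.3% in A375RIPK4.KO, and NRG1 held 1.55% and 12.3%. On the same lengths ERBB3 held 77.6% and 53.5% of the receptor sum, ERBB2 17.2% and 35.2%, and EGFR 5.24% and 11.4%.

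**Figure D3:**
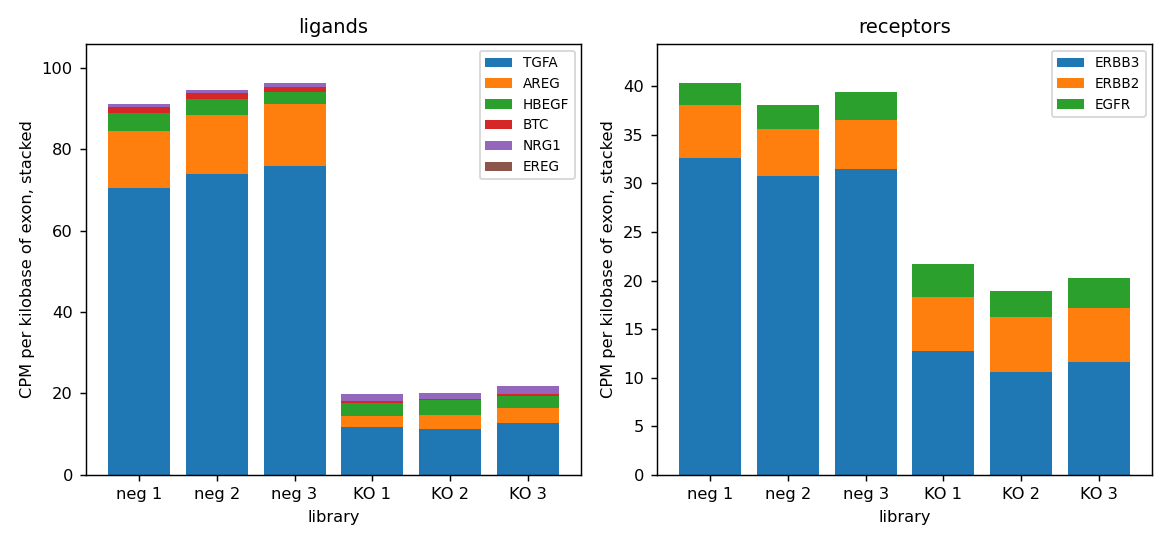
CPM per kilobase of exon stacked by gene in each library, ligands on the left and receptors on the right (neg, A375neg; KO, A375RIPK4.KO). The ligand bars fall from a mean of 94.1 to 20.6 and the receptor bars from 39.3 to 20.3, with TGFA and ERBB3 as the largest part in every library.

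The ligand genes AREG, EREG and BTC lie in 1 stretch of chromosome 4, together with EPGN, which encodes epigen. From the start of EPGN to the end of BTC this stretch covers 486214 bases in GENCODE 29. EPGN and EREG are 49836 bases apart, EREG and AREG 56383, and AREG and BTC 289750, with no other protein-coding gene between these neighbours. Their levels differed widely: EPGN had 3, 0 and 0 raw counts in A375neg and 1, 0 and 2 in A375RIPK4.KO, EREG at most 6 in any library, and AREG at least 101. The genes of the stretch that were expressed above the filter, AREG and BTC, were both lower in A375RIPK4.KO, and for EPGN and EREG a difference was not detectable at this depth.

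Promoter sequences of 300 bases, from 250 before to 50 after the annotated start, were taken from RefSeq (GRCh38.p14). Entries were found for 7 of the 9 genes, and NRG1 and ERBB3 had none. The sequences of 5 ligand genes are shown because these ligands lie next to each other or share a receptor but differ in level and in their difference between the groups. For each, the start used is also the outer end of the exon that the deposited table gives. Capitals mark the cAMP response element (CRE, TGACGTCA), the TATA box (TATAAA) and the GC box (GGGCGG), searched on both strands, and GC boxes may overlap each other. The AREG promoter is at chr4:74444886-74445185 on the plus strand and that of EREG at chr4:74364895-74365194, also plus. BTC is at chr4:74794474-74794773, TGFA at chr2:70553777-70554076 and HBEGF at chr5:140346554-140346853, all on the minus strand.
AREG: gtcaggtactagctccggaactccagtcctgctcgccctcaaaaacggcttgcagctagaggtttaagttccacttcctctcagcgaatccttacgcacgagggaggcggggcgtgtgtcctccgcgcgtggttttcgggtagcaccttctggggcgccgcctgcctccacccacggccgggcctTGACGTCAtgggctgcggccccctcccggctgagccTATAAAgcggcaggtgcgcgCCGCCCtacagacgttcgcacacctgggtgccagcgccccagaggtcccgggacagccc
EREG: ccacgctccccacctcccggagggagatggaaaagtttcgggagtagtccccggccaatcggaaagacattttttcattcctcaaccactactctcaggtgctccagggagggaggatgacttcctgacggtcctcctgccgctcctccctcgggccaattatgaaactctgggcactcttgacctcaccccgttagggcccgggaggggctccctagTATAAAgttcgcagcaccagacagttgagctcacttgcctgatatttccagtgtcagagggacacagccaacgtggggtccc
BTC: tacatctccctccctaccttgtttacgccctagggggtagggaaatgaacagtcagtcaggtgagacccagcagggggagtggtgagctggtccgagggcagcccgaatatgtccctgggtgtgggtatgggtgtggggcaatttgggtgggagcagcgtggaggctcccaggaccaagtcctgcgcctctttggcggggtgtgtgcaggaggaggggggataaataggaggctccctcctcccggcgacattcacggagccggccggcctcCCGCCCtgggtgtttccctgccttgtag
TGFA: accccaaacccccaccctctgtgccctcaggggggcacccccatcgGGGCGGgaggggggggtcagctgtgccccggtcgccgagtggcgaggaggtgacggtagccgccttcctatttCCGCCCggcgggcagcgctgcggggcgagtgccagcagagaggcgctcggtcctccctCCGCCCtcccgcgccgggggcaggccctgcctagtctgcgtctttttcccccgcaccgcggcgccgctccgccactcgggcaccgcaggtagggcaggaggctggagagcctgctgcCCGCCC
HBEGF: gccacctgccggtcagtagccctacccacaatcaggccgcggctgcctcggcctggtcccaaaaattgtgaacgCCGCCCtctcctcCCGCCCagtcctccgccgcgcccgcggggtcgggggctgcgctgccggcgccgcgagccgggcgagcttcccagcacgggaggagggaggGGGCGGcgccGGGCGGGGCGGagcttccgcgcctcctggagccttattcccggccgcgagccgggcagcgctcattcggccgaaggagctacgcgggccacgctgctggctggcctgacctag

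AREG held 1 CRE, which began 65 bases before the start, and a TATA box 29 bases before it. EREG held a TATA box 32 bases before its start and neither a CRE nor a GC box in this window. TGFA held 4 GC boxes and HBEGF held 5, against 1 each in AREG and BTC, and neither TGFA nor HBEGF held a TATA box or a CRE. Among all 35116 RefSeq promoter windows of this length, 1.85% held the CRE, 11.5% the TATA box and 45.0% the GC box. None of these 5 windows held the AP-1 letters (TGANTCA, in 7.71% of all windows) or the E-box CACGTG (in 7.26%). The GC content was 75.3% in TGFA and 75.0% in HBEGF, 66.3% in AREG, 63.0% in BTC and 57.7% in EREG, against a median of 58.7% over all windows. RefSeq gives TGFA another start, not shown, whose window had a GC content of 63.0% and held none of these motifs. These matches describe the letters of the windows and do not show that a factor binds there.

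Genes with a pattern most like TGFA, the most abundant ligand per kilobase, and like ERBB3, the most abundant receptor, were sought among 10842 other protein-coding genes averaging 50 counts or more. The measure was the mean absolute difference of centred log2 CPM over the 6 libraries. Closest to TGFA were ARNT2 (0.0806), RIPK4 (0.0910) and NFATC2 (0.0948). ARNT2, a bHLH-PAS transcription factor, had 3610, 4219 and 3852 raw counts in A375neg and 598, 650 and 645 in A375RIPK4.KO. Closest to ERBB3 were KALRN (0.0656), TBL1X (0.0662) and CILK1 (0.0686). With 6 libraries in 2 groups, this measure mostly reads the size of the step between the groups.

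Beyond the 9 genes, 65 genes around the receptors were placed in 6 lists by their known roles, with earlier results of these data already known, and 61 of them were tested. Past both limits were 10, of which 2 were higher and 8 lower in A375RIPK4.KO, or 16.4% beside 9.04% of all genes. Because of how the lists were made, this share is a description, and the adjusted p-values, taken over all genes tested, are not independent evidence about the lists. The median log2 fold change of the lists was -0.08, beside -0.0047 over all genes tested.

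**Figure D4:**
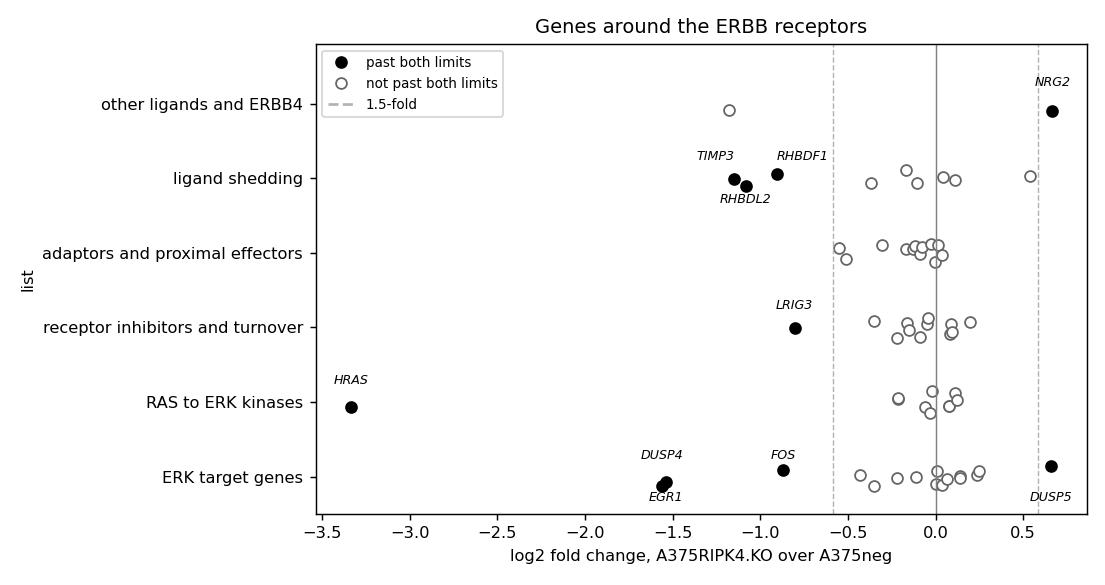
Log2 fold change of A375RIPK4.KO over A375neg for the 61 tested genes of the 6 lists, 1 point per gene, filled and named where past both limits. The height within a list carries no value. Adaptors hold no filled point, whereas ligand shedding and ERK target genes hold 3 and 4.

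Of the other ligands and ERBB4, 2 of 6 genes could be tested. NRG2, a neuregulin that binds ERBB3 and ERBB4, had 134, 192 and 143 raw counts in A375neg and 201, 248 and 227 in A375RIPK4.KO. Its log2 fold change was 0.67 (SE 0.16, edgeR adjusted p = 0.0211), but was no longer past the limits without A375neg replicate 1, A375neg replicate 3 or A375RIPK4.KO replicate 3, with an adjusted p of up to 0.0808 from edgeR. EGF had 12, 29 and 20 raw counts in A375neg and 10, 12 and 2 in A375RIPK4.KO, and was not past them. ERBB4, a receptor of the neuregulins, had at most 5 raw counts in any library, NRG4 had at most 9, and NRG3 was not listed.

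Of 9 genes for the shedding of ligands, 3 were lower past both limits and none was higher, beside 4.65% and 4.39% of all genes tested. TIMP3, an inhibitor of the sheddase ADAM17, fell from 23801, 25524 and 26080 raw counts to 9405, 10688 and 10927, a log2 fold change of -1.15 (SE 0.06, edgeR adjusted p = 5.05e-06). RHBDF1 encodes iRhom1, a partner that carries ADAM17 to the cell surface. It fell from 452, 508 and 496 raw counts to 243, 216 and 247, a log2 fold change of -0.91 (SE 0.10, edgeR adjusted p = 0.00039). RHBDL2, a rhomboid protease that can cut EGF, was rare, with 49, 36 and 36 against 19, 13 and 20 raw counts. Its adjusted p of 0.0461 from edgeR was over 0.05 with any of the 6 libraries left out, with DESeq2 (0.0936) and without the filter on low counts. The sheddases themselves differed less: ADAM17 had a log2 fold change of -0.17 (SE 0.08) and ADAM10 of -0.11 (SE 0.09), neither past the limits. Short of 1.5-fold, the ADAM family member ADAM12 was higher in A375RIPK4.KO (log2 fold change 0.54, edgeR adjusted p = 0.0209), and FRMD8, which binds the iRhoms, was lower (log2 fold change -0.37, edgeR adjusted p = 0.0353).

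None of 12 adaptors and proximal effectors was past both limits. GAB2, a docking protein, came closest, at a log2 fold change of -0.55 (SE 0.07, edgeR adjusted p = 0.000899) from 1356, 1356 and 1319 to 842, 852 and 811 raw counts. SOS2, an exchange factor for RAS, had an adjusted p of 0.0289 from edgeR and a log2 fold change of -0.51. Of 12 receptor inhibitors and turnover genes, LRIG3, which encodes a membrane protein with leucine-rich repeats, was the 1 past both limits. It fell from 1270, 1462 and 1502 to 693, 771 and 741 raw counts, a log2 fold change of -0.80 (SE 0.07, edgeR adjusted p = 9.3e-05). ERRFI1, an inhibitor of EGFR, had a log2 fold change of -0.16 and an adjusted p of 0.101 from edgeR.

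Of 10 genes from RAS to ERK, HRAS was past both limits. Its raw counts were uneven, 407, 377 and 24 in A375neg and 14, 47 and 12 in A375RIPK4.KO. A375neg replicate 3 lay below A375RIPK4.KO replicate 2, so the groups overlapped, and the source of the uneven counts within A375neg was not tested. The log2 fold change was -3.34 (SE 0.91), and it ran from -4.23 without A375RIPK4.KO replicate 2 to -2.85 without A375neg replicate 1. The adjusted p from edgeR was 0.0357 and was over 0.05 without A375neg replicate 1, A375neg replicate 2, A375RIPK4.KO replicate 1 or A375RIPK4.KO replicate 3, up to 0.116. No other gene of this list was past the limits.

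Of 16 genes that ERK signalling is known to induce, 1 was higher and 3 were lower past both limits. Over all genes tested, these shares were 4.39% and 4.65%. DUSP4, a nuclear phosphatase of ERK, fell from 11605, 11980 and 12380 raw counts to 3571, 3712 and 3832, a log2 fold change of -1.56 (SE 0.06, edgeR adjusted p = 5.57e-07). DUSP5, another nuclear ERK phosphatase, rose from 987, 1118 and 1148 to 1354, 1608 and 1708, a log2 fold change of 0.66 (SE 0.08, edgeR adjusted p = 0.000506). The immediate early factor EGR1 fell from 352, 342 and 332 to 118, 81 and 123 raw counts (log2 fold change -1.54, SE 0.18, edgeR adjusted p = 0.000409). FOS, another such factor, fell from 174, 144 and 173 to 79, 84 and 82 raw counts (log2 fold change -0.87, SE 0.17, edgeR adjusted p = 0.00811). ETV4, ETV5 and SPRY2 had an adjusted p under 0.05 and were lower by less than 1.5-fold. DUSP6, the cytoplasmic ERK phosphatase, had a log2 fold change of 0.14 (SE 0.06, edgeR adjusted p = 0.131), and SPRY4 one of 0.0026. In all, 7 of the 16 genes had an adjusted p under 0.05 in edgeR, 6 of them lower and DUSP5 higher. Over all genes tested, 16.6% had an adjusted p under 0.05. Because of how the lists were made, the count of 7 is not read as a result. The median log2 fold change of the 16 was 0.0048.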

How the data were processed

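RNA-seq counts of 6 libraries, 3 per group, were used. The authors had libraries and read data prepared by a sequencing company and deposited whole, unnormalized counts of each gene in each library. The submitters' processing notes name cutadapt, FastQC, HISAT2, HTSeq, DESeq2 and GRCh38.p13; versions and the strand setting of the counting are not given in the sources used here. The table's normalized counts and the authors' own comparison (fold change, Wald statistic, p-values) were not used.

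The groups were compared with the quasi-likelihood test of edgeR 4.0.16 in R 4.3.3, after filterByExpr and TMM scaling, with Benjamini-Hochberg adjustment over 14443 genes. The standard error is the size of the log2 fold change divided by the square root of F. Exonic lengths and positions came from GENCODE 29, in which 95.5% of the deposited exon positions compared overlapped the gene of that name. In a simulation of this comparison with 200 genes changed, edgeR recovered 89.2% of 4-fold and 57.0% of 2-fold changes in 14443 genes. In that simulation, 12 genes that had not been changed were also past both limits.

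Named were the 9 genes, RIPK4, every listed gene past both limits (or, in a list with none, the largest change) and the 3 genes most like TGFA and ERBB3 (log2 CPM with 0.1 CPM added). ADAM10, ADAM12, ADAM17, FRMD8, SOS2, ERRFI1, ETV4, ETV5, SPRY2, DUSP6, SPRY4, EGF, NRG4, ERBB4 and EPGN were named after their values were seen. The members and lists were chosen with earlier results of these data known. Alternatives were DESeq2 1.42.0, its size factors in edgeR, no filter, a mean of at least 50 counts, a replicate block, removal of the gene length trend, a 2-fold limit and leaving out each library. Figures were drawn with matplotlib 3.10.9.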

Additional observations from a re-analysis of the deposited data

How the results depend on the processing

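For the 8 tested genes of the EGF family, each gene in each fit was taken as a comparison. All 48 with a library left out and all 48 under the other alternatives at 1.5-fold kept the direction and the side of the limits. The count of 5 was 4 with a 2-fold limit, which NRG1 does not reach. The 2-fold limit lowered the genes past both limits from 1306 to 793 over all genes and from 10 to 5 in the 6 lists, by its own construction. Leaving out 1 library gave 1059 to 1336 genes over all genes and 7 to 9 in the lists, where NRG2, RHBDL2 and HRAS were lost in the fits named with them. With a mean of at least 50 counts, 963 genes passed, and with DESeq2 1353. Samples with the same replicate number shared no clear deviation (correlation of deviations -0.0119 to 0.0823 for the same number, -0.0956 to 0.0674 otherwise). Correlations this small cannot show that the samples were unpaired. The replicate block gave 1266 genes over all genes, 5 of the EGF family and 9 in the lists, without RHBDL2. With the longest GENCODE transcript as length, chosen after seeing the data, 7 of the 9 genes kept their rank per kilobase in A375neg, BTC and NRG1 changing places, and 5 of the 9 in A375RIPK4.KO, where TGFA and ERBB3, and HBEGF and AREG, changed places. RefSeq transcript lengths were not used here. Counts limit what can be said of EREG, EPGN, NRG4 and ERBB4.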
